A study of Mus musculus with 2 samples.

Results

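Chemokine and cytokine genes with epithelial or mucosal roles were examined in mouse colon epithelial cells. The genes were Ccl6, Ccl28, Ccl25, Cxcl9, Cxcl16, Cx3cl1, Il1rn, Il18, Il15 and Tslp, and every probe set that the platform annotation ties to 1 of these symbols alone was used. Of these 10 genes, 9 had at least 1 probe set, 15 probe sets in all, out of 8721 named genes on the arrays. Tslp was not analysed here. The cells came from C57BL/6 mice, an inbred strain, aged 7 weeks, and had been incubated either with PBS, a salt buffer, or with MIF. The label MIF is read here as macrophage migration inhibitory factor, a ligand of CD74. Each incubation was represented by 1 Affymetrix array, so no value has a replicate and no test or error between preparations can be given. The sources used here do not give the dose, the incubation time, the number of animals or the method of isolation.

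Chemokines are small secreted or membrane-tethered proteins that bind G protein-coupled receptors and direct the migration of leukocytes. In the gut, epithelial chemokines draw antibody-secreting cells, T cells and mononuclear phagocytes towards the mucosa. Epithelial IL-15 and cytokines of the IL-1 family act on lymphocytes that reside in or beneath the epithelial layer.

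Of the 9 genes, 7 lay above the signal floor on both arrays. The floor was a signal of 232, the 40th percentile of both arrays, below which a probe set was not read as measured. In this set, Ccl6 was 1.69-fold higher on the MIF array and Cxcl9 was 1.36-fold lower. Il1rn, Ccl28 and Il15 were 1.28-fold, 1.23-fold and 1.21-fold higher, and Il18 and Cx3cl1 lay within 1.2-fold. Ccl25 and Cxcl16 were under the floor on both arrays.

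At 1.5-fold, 1 of the 7 genes was higher on the MIF array, against 0.634% of all 5837 assessed genes, and 0 were lower, against 0.463%. At 1.2-fold, 4 of the 7 were higher and 1 was lower, against 6.82% and 6.29% of all assessed genes. At 2-fold, 0 of the 7 were higher or lower, against 0.0685% and 0.0857%. By any amount, 6 were higher and 1 lower, against 46.7% and 53.3%. The median log2 difference, MIF minus PBS, was 0.27 over the 7 genes and -0.01 over all assessed genes. With the floor lowered to the 20th percentile or removed, Ccl25 and Cxcl16 entered and the median of the 9 genes was 0.14.

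**Figure D1:**
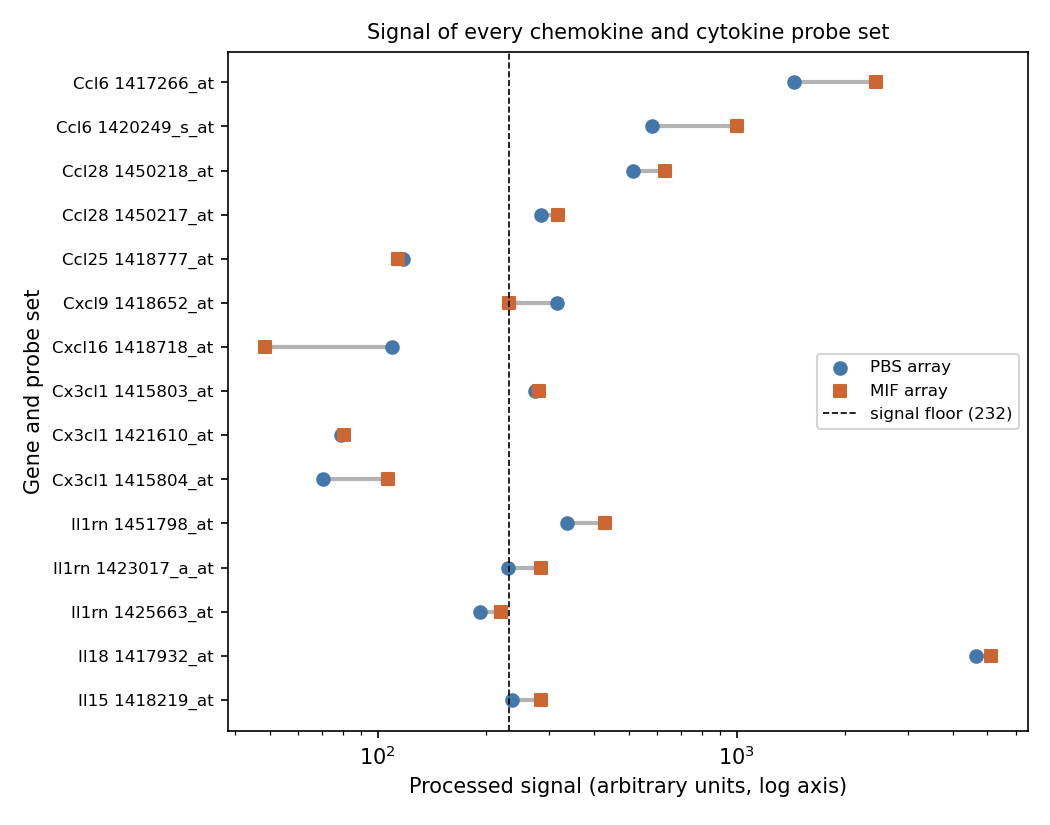
Processed signal (log axis) of each of the 15 probe sets of the 9 genes on the PBS array (circles) and the MIF array (squares), 1 array each, with the signal floor of 232 as a dashed line. Without a floor, 12 of the 15 probe sets were higher on the MIF array and 3 lower. The 3 lower were those of Cxcl9, Ccl25 and Cxcl16. Where both signals passed the floor, 8 probe sets were higher and 1, that of Cxcl9, was lower. Probe sets of the same gene are counted separately. The share over all probe sets was not computed, so these counts describe this panel alone. Of all assessed genes, each by its brightest probe set, 46.7% were higher.

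The CC chemokines were considered first. Ccl6, a rodent chemokine known mainly from macrophages and other myeloid cells, had a signal of 1449 after PBS and 2444 after MIF with probe set 1417266_at. Its second probe set, 1420249_s_at, whose suffix marks probes shared by more than 1 transcript, gave 581 and 1005. The log2 differences were 0.75 and 0.79, so both probe sets showed the higher signal on the MIF array by nearly the same amount. Ccl6 ranked 14 from the top among the differences of the 5837 assessed genes. The assessed genes above the floor on both arrays were divided into 4 nearly equal groups by mean signal. Among the 1387 genes of the highest signal group, 0.288% were as far or farther in this direction.

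The other CC chemokines above the floor, Ccl9 and Ccl28, had smaller differences. Ccl9, a close relative of Ccl6, went from 485 to 526, a log2 difference of 0.12, and its second probe set read 227 and 240 on either side of the floor. Ccl28, a mucosal chemokine that attracts IgA-secreting plasma cells through CCR10, gave 516 after PBS and 633 after MIF with probe set 1450218_at. Probe set 1450217_at of the same gene gave 285 and 318. Both were higher on the MIF array, with log2 differences of 0.30 and 0.16. Ccl28 ranked 306 from the top, and 5.24% of assessed genes differed by as much or more in that direction. Ccl25, which guides CCR9-bearing lymphocytes to the small intestine, read 117 and 114, under the floor on both arrays.

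Markers of myeloid cells are given beside Ccl6, since such cells can express it. Of 17 listed myeloid markers, 11 were in the table and 9 of them lay under the floor on both arrays. Cd14, a receptor for lipopolysaccharide, read 1318 after PBS and 1307 after MIF. The lysozyme gene Lyz2 read 188 and 243. The summed signal of the 11 markers was 2111 after PBS and 2225 after MIF, and none was at 0. The part of myeloid cells in the Ccl6 difference was not tested. A bulk sample cannot separate a change in the number of such cells from a change in RNA per cell.

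Cxcl9, the interferon gamma-induced ligand of CXCR3 on activated T cells, went the other way. Its single probe set, 1418652_at, read 316 after PBS and 233 after MIF, and the latter value lay just above the floor. The log2 difference was -0.44, ranking 76 from the bottom, and 1.30% of assessed genes were as low or lower. Cxcl10, another ligand of CXCR3, read 197 and 166, under the floor on both arrays. It was chosen after its values were seen, as were the other genes named here that were under the floor.

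Signalling genes of the interferon gamma pathway showed no common direction. Of 7 in the table, 6 were above the floor on both arrays, with 3 higher, 3 lower and a median log2 difference of -0.02. Irf8, an interferon-induced transcription factor, read 3042 after PBS and 2352 after MIF, the only one of the 6 past 1.2-fold. Its second probe set read 1741 and 1285, so its probe sets differed by -0.37 and -0.44. Irf1, which drives many interferon gamma targets, differed by -0.17. The receptor chains Ifngr1 and Ifngr2 differed by -0.07 and 0.18, and the receptor-associated kinases Jak1 and Jak2 by 0.11 and 0.04. Socs1 was under the floor at 51.2 and 42.1. The part of interferon gamma in the Cxcl9 difference was not tested.

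The promoter windows of Ccl6, the gene with the largest difference, and of Ccl28, Il1rn and Cxcl9 are shown to set the higher genes beside the lower one. Sequences are RefSeq's for GRCm38.p6, from 250 bases before to 50 bases after a transcription start. Windows were held for 7 of the genes, 10 windows in all. Capitals mark matches on either strand, at any position, to TGANTCA, the AP-1 motif, or to TATAAA, the letters of the TATA box. In the window of Ccl6 no motif searched was matched.

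Ccl6 promoter, chr11:83593038-83593337, minus strand: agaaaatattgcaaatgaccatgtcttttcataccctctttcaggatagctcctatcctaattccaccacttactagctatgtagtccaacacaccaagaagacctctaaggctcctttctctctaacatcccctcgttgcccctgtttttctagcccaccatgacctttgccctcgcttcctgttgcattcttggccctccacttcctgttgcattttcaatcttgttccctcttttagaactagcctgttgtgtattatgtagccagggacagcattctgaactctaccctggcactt
Ccl28 promoter, chr13:119623569-119623868, plus strand: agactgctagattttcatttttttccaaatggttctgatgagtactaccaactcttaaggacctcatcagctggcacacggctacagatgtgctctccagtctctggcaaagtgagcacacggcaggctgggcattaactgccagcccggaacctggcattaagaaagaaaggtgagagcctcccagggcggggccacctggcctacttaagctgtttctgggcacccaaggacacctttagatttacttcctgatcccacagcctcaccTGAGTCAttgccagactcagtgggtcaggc
Il1rn promoter, chr2:24336610-24336909, plus strand, the first of its 3 windows: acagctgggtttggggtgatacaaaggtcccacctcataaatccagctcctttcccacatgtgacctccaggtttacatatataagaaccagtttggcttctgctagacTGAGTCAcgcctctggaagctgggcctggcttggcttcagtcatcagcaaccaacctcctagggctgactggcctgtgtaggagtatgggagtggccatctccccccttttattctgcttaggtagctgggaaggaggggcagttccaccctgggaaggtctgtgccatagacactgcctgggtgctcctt
Cxcl9 promoter, chr5:92328030-92328329, minus strand: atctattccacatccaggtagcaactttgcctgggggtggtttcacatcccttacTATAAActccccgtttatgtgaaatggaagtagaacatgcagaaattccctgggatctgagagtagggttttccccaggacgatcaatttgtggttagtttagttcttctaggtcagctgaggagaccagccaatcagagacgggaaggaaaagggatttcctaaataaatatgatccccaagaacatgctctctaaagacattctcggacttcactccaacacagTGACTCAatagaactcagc

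The AP-1 motif was matched in 3 of the 10 windows, those of Ccl28, Il1rn and Cxcl9 printed here, and in 7.81% of all 32851 promoter windows of the table. Of these 3 genes, Ccl28 and Il1rn were higher on the MIF array and Cxcl9 was lower. Il1rn held the motif only in the first of its 3 windows, and no window was held for Il15. The part of AP-1 in these differences was not tested. TATAAA was matched in 5 of the 10 windows and in 13.6% of all windows. No position relative to the start was required, so such a match need not be a working TATA box. That of Cxcl9 lay at bases 56 to 61 of its window, well before the start. TTCNNNGAA, the GAS element bound by STAT dimers, and GGGRNNYYCC, the NF-kB consensus, were each in 0 of the 10 windows. They were in 8.3% and 8.46% of all windows. In these letters N is any base, R is A or G and Y is C or T. A match of letters is not a bound site, and the lack of a match does not show that a site is absent. None of these motifs overlapped another in the printed windows.

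The transmembrane chemokines had signals near or under the floor. Cx3cl1, or fractalkine, which is tethered to epithelial and endothelial surfaces and engages CX3CR1 on mononuclear phagocytes, read 274 after PBS and 281 after MIF with probe set 1415803_at. Its log2 difference of 0.03 turned to -0.0028 with median centring and to -0.01 with quantile normalization, so no direction can be given. Its other probe sets, 1421610_at and 1415804_at, were under the floor, at 79.2 and 80.8 and at 70.6 and 107. Cxcl16, which binds CXCR6 on T cells and also acts as a scavenger receptor, read 109 after PBS and 48.4 after MIF. Its signal on the PBS array was the higher, and both values lay well under the floor. Genes for the proteases that release these ligands had small differences on their brightest probe sets. Adam10 and Adam17, sheddases of these chemokines, differed by 0.08 and 0.16, and the other probe sets of Adam10 by 0.31 and 0.26. The sheddase cofactor gene Rhbdf1 differed by 0.05 and the proprotein convertase gene Furin by 0.07. All 4 assessed genes of this list were higher, with a median of 0.07 and none past 1.2-fold.

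The cytokines of the IL-1 family were both higher on the MIF array, by different amounts. Il1rn, the antagonist that occupies the IL-1 receptor without signalling, read 336 after PBS and 429 after MIF with probe set 1451798_at. Probe set 1423017_a_at gave 230 and 286, the first under the floor, and 1425663_at gave 193 and 221, both under it. All 3 probe sets were higher on the MIF array, with log2 differences of 0.35, 0.31 and 0.20 without a floor. Il1rn ranked 215 from the top, and 3.68% of assessed genes were as high or higher.

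Il18 is stored as a precursor in epithelial cells and is released after cleavage by caspase-1. Its single probe set, 1417932_at, read 4654 after PBS and 5120 after MIF, 1.10-fold higher. The log2 difference of 0.14 was smaller than the SD over the genes in its signal group, again the highest, of 0.17, and 10.5% of these genes were as high or higher. Il18bp, the secreted protein that neutralises the cytokine, read 247 and 165, the latter under the floor, a difference of at least 1.07-fold towards PBS.

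Among genes of the inflammasome, the complex that activates caspase-1, the adaptor Pycard was the one past 1.5-fold. It read 4681 after PBS and 7463 after MIF, 1.59-fold higher. A second Pycard probe set read 45.1 and 131, in the same direction but under the floor on both arrays. The other genes of this list differed less. Casp1, the protease itself, read 3419 and 3396, nearly equal. Nlrp6, a sensor found in colon epithelium, differed by -0.21, and Casp4 and Casp8 differed by -0.08 and 0.03. The bacterial sensors Naip2, Naip5 and Naip6, closely related paralogs whose signals may not be fully separate, differed by 0.05, -0.08 and 0.21. Of the 8 assessed genes of the list, 4 were higher and 4 lower, with a median of 0.0082 and 1 past 1.5-fold.

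Il15, which sustains intraepithelial lymphocytes and natural killer cells, read 237 after PBS and 286 after MIF with its single probe set, 1418219_at. It was 1.21-fold higher from a PBS signal close to the floor. Its log2 difference was 0.27, and 9.02% of the 1386 genes in the lowest of the 4 signal groups were as high or higher. Il15ra, the chain that presents the cytokine to neighbouring cells, was under the floor at 86.9 and 85.7. Granzyme genes of cytotoxic lymphocytes, a target population of this cytokine, were lower on the MIF array. Gzma went from 813 to 403 and Gzmb from 541 to 282. These were 2 of 9 lymphocyte markers in the table, out of 21 listed. The other 7, among them Cd3g, Cd8a, Ptprc and the perforin gene Prf1, were under the floor on both arrays. Of these, Prf1 read 40.2 and 80.0, higher on the MIF array, and the rest read lower on it. The summed signal of the 9, most of it from the granzyme genes, was 1828 after PBS and 1071 after MIF, and none was at 0. The part of lymphocytes in the differences of Il15 and Cxcl9 was not tested.

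**Figure D2:**
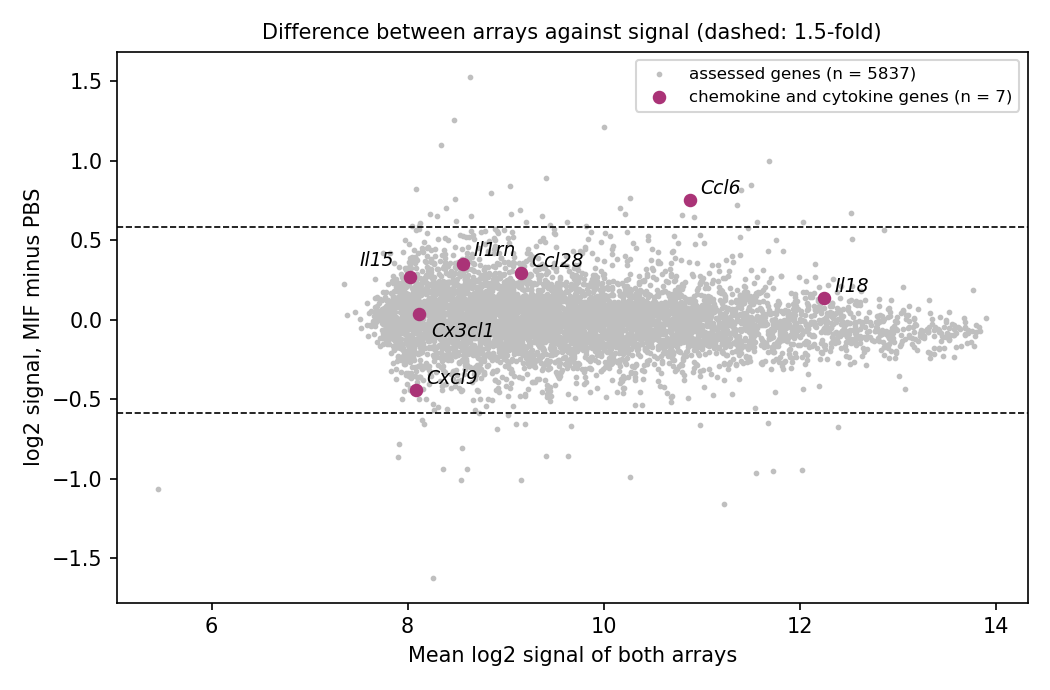
Log2 difference (MIF minus PBS) against the mean log2 signal of both arrays for the 5837 assessed genes (grey) and the 7 assessed chemokine and cytokine genes (purple), with dashed lines at 1.5-fold. Ccl6 lies above the upper line, and Cxcl9 near the lower edge of genes of low signal.

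The size of these differences can be set beside the spread within the arrays. Over all genes measured above the floor after both incubations, the log2 difference had an SD of 0.19. It was 0.20 in the lowest signal group and 0.17 in the highest. Between probe sets of the same gene, the pooled SD was 0.15 over 1800 genes. On the brightest probe set of each gene, the differences of Ccl6, Cxcl9, Il1rn, Ccl28 and Il15 exceeded both values. That of Cx3cl1 was smaller than both. Between probe sets of the same gene in the highest signal group, that of Il18, the pooled SD was 0.11. The Il18 difference of 0.14 exceeded this value, and lay under the SD of 0.17 over the genes of that group. It was 0.10 with median centring, 0.18 with quantile normalization and 0.19 with the intensity trend removed. Cxcl9, Il15 and Il18 rest on 1 probe set each. Such spreads describe the hybridisation of 2 RNA samples and give no error between preparations of cells.

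Receptors of these ligands were nearly all under the floor. Of 18 receptors and binding proteins listed, 10 were in the table, and 9 of these were under the floor on both arrays, Il18bp being the exception. Among those under the floor, Il1r1, the signalling receptor that Il1rn blocks, read 147 and 209, and Crlf2, the receptor chain for the Tslp protein, read 205 and 124. The receptors Ccr1, Cxcr3 and Cxcr6 read at most 86.0 on either array. All 4 other chemokine receptors in the table were also under the floor.

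Other chemokines and cytokines were largely under the floor. Of 13 further chemokines in the table, Ccl9 alone was above it. Ccl5, a T cell chemokine, read 181 after PBS and 85.4 after MIF, under the floor on both. Of 15 further cytokines, Kitl and Tnfsf10 were above the floor on both arrays. Kitl, the ligand of the receptor KIT, read 2038 and 2390, and its 4 probe sets were all higher on the MIF array, by 0.23 to 0.60 without a floor. Tnfsf10, a death receptor ligand, read 302 and 270, a difference of -0.16. Tnfsf13b, a survival factor of B cells, read 251 and 181, a difference of at least 1.08-fold towards PBS.

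**Figure D3:**
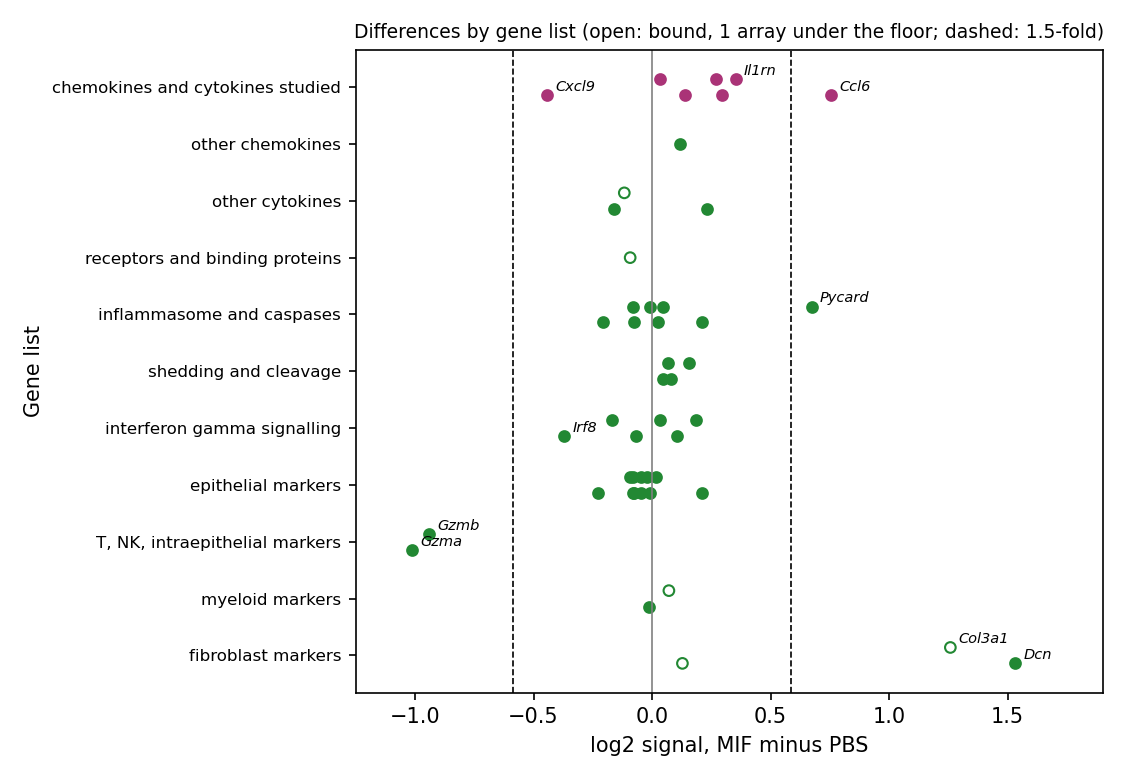
Log2 difference (MIF minus PBS) of each assessed gene by gene list, with open symbols for bounds where 1 array was under the floor and dashed lines at 1.5-fold. Ccl6 and Pycard lie past 1.5-fold towards MIF, with the fibroblast markers Dcn and Col3a1, and the granzyme genes past it towards PBS.

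The epithelial label was checked against defining markers. Of 12 epithelial markers, 11 were in the table and all 11 were above the floor on both arrays, with signals between 2036 and 14619 after PBS and between 2061 and 13874 after MIF. Their median log2 difference was -0.05, and none was past 1.2-fold. The largest differences were those of the keratins Krt19 and Krt20, at -0.23 and -0.09, the cadherin Cdh1, at 0.21, and the brush border protein Vil1, at -0.08. Fibroblast markers summed to 1011 after PBS and 2472 after MIF over all 12 genes, of which 9 were under the floor on both arrays and none was at 0. Dcn read 235, just above the floor, and 678. Col3a1 read 227, under the floor, and 554, a difference of at least 2.39-fold towards MIF. Its second probe set read 10.9 and 41.0, under the floor on both arrays. Vim read 175 and 253, the former under the floor, a difference of at least 1.09-fold towards MIF. Under a floor raised to the 60th percentile, the differences of Dcn, Col3a1 and the granzyme gene Gzmb were bounds of 0.45, 0.15 and -0.12, no longer past 1.5-fold. The part of fibroblasts in the higher signals of Ccl6, Il1rn, Ccl28 and Il15 was not tested. The 2 B and plasma cell markers and 3 endothelial markers in the table were under the floor on both arrays, with sums of 60.6 and 42.0 and of 47.3 and 89.0.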

How the data were processed

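Trizol extracts were turned into biotinylated cRNA by the Affymetrix protocol, per the labels. The signal intensity of each probe set, deposited by the authors after processing, is on a linear scale. How probes were summarised, corrected for background and scaled, and the build, is not given in the sources used here. Array controls (61 of 15340 probe sets) were left out. The remainder were named through GEO's platform annotation, 14049 having 1 symbol, 490 several and 740 none, with symbols updated by Entrez ID for 14047 probe sets.

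The column medians, 337 and 346, differed by 0.04 on the log2 scale, and the columns were used as deposited. Signals under 232 were raised to that floor, and each gene was represented by its brightest probe set. A gene under the floor on 1 array gives a bound, written as at least N-fold. Genes under it on both arrays (2884) were not assessed. The number of arrays limits the precision, and no test was made.

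The genes and the 14 gene lists were chosen with earlier results of these data known. Named genes were all those of the set. From each further list they were every gene above the floor on both arrays where 8 or fewer, otherwise the 4 largest differences and any past 1.5-fold, and up to 4 cell type markers. Alternatives changed the scaling, floor, probe set choice, intensity trend (loess, span 0.3) and fold threshold. The steps were tested on simulated data. Versions were statsmodels 0.14.6, matplotlib 3.10.9, pandas 2.3.3, numpy 2.4.6 and Python 3.11.15.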

Additional observations from a re-analysis of the deposited data

How the results depend on the processing

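The count of 1 gene higher at 1.5-fold held under median centring, quantile normalization, the floor at the 20th or 60th percentile or none, averaged probe sets, omission of cross-hybridising probe sets and removal of the intensity trend. At 2-fold the counts were 0 higher and 0 lower, and at 1.2-fold 4 and 1. With no floor, 1 gene, Cxcl16, was lower at 1.5-fold, by -1.18, from signals of 109 and 48.4, against 2.27% of all genes. The median log2 difference ran from 0.14 (9 genes, floor at the 20th percentile or none) to 0.30 (3 genes, floor at the 60th percentile). With that higher floor, Cxcl9, Cx3cl1, Il1rn and Il15 were not assessed, and Cx3cl1 was not with averaged probe sets. Where assessed, Ccl6 ranged from 0.72 to 0.77, Ccl28 from 0.23 to 0.30, Il1rn from 0.29 to 0.35, Il15 from 0.23 to 0.27, Il18 from 0.10 to 0.19 and Cxcl9 from -0.47 to -0.44. Pycard was at 1.10 with averaged probe sets, against 0.67 with its brightest. That average takes in the probe set that was under the floor on both arrays. With the floor at the 60th percentile, Dcn was at 0.45, Col3a1 at 0.15, Gzma at -0.71, Gzmb at -0.12 and Naip6 at 0.02. Without a floor or with it at the 20th percentile, Tnfsf13b was at -0.47, Il18bp at -0.59, Lyz2 at 0.37 and Vim at 0.53. No paired analysis was possible because each group holds 1 array. Signals near the floor limit Cxcl9, Il15 and Cx3cl1.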
